A study of Mus musculus with 10 samples.

Results

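H3K27me3 bins found only in unstimulated macrophages are the 1 kb pieces of the mouse genome that lay under regions of this histone mark in none of the 8 libraries of stimulated macrophages and in both libraries of unstimulated (M0) macrophages. Chromosomes 1 to 19 of build mm10 were cut into 1000 bp bins, and a bin was called in a library when at least 500 bp of it lay under the merged H3K27me3 regions of that library. The rule found 2656 bins, which are 1.92% of the 138536 bins called in both M0 libraries and 0.712% of the 372982 bins called in at least 1 of the 10 libraries. These bins are called M0-only bins below. They were selected on the region calls of all 10 libraries, so their difference between stimulated and M0 libraries is a description and carries no test.

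The series profiled H3K27me3 by chromatin immunoprecipitation and sequencing in bone marrow-derived macrophages of C57BL/6 mice that carried or lacked PERK, the kinase of endoplasmic reticulum stress encoded by Eif2ak3. All cells were grown from bone marrow in M-CSF at 20 ng/ml for 7 days. KO cells were Eif2ak3 fl/fl x LysMcre, in which Cre is driven in myeloid cells, and WT cells were Eif2ak3 fl/fl without the Cre, so that both genotypes carried the floxed allele. M2 cells had received IL-4 at 20 ng/ml for 24 h, M1 cells had received LPS at 20 ng/ml with IFNg at 50 ng/ml for 24 h, and M0 cells had received neither. There were 2 libraries each of KO M2, WT M2, KO M1 and WT M1 cells, and 1 library each of KO M0 and WT M0 cells. The labels do not say whether replicates came from separate animals, so p-values measure the spread between these libraries, which may be technical. Regions of H3K27me3 give no check of the Eif2ak3 deletion itself.

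H3K27me3 is laid down by the Polycomb repressive complex 2, whose catalytic subunit is EZH2 or EZH1, and is removed by the demethylases KDM6A and KDM6B. It covers genes that a cell keeps silent or poised, most often at starts rich in CG dinucleotides, and it is read by the CBX subunits of Polycomb repressive complex 1. In macrophages, IL-4 and IFNg signal through JAK kinases and STAT transcription factors, while the SOCS proteins and CISH are feedback inhibitors of this JAK-STAT signalling.

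The start windows of 6 genes are shown because their starts lay in M0-only bins and because they differ in CG content. They are Socs1, Socs3 and Cish, which encode JAK-STAT feedback inhibitors, Il12b, which encodes the p40 chain of the cytokines IL-12 and IL-23, Ptgs2, which encodes the inducible cyclooxygenase of prostaglandin synthesis, and Nr4a1, which encodes an immediate early nuclear receptor. Each window runs 5′ to 3′ on the strand of the gene, from 250 bases before the start to 50 after it, in RefSeq's GRCm38.p6. The positions are chr16:10785487-10785786 on the minus strand for Socs1, chr11:117969317-117969616 on the minus strand for Socs3, chr15:101266596-101266895 on the plus strand for Nr4a1, chr1:150099781-150100080 on the plus strand for Ptgs2, chr11:44399813-44400112 on the plus strand for Il12b and chr9:107296409-107296708 on the plus strand for Cish. Capitals mark CG dinucleotides in the lines of Socs1, Socs3, Nr4a1, Ptgs2 and Il12b, and mark the STAT word TTCNNNGAA in the line of Cish.
Socs1: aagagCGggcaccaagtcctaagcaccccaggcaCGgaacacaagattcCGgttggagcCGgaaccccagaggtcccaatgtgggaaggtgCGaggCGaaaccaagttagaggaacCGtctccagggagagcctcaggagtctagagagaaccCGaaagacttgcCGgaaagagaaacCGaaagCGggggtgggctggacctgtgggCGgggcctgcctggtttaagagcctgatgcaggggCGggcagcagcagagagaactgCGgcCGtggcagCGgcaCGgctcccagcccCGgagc
Socs3: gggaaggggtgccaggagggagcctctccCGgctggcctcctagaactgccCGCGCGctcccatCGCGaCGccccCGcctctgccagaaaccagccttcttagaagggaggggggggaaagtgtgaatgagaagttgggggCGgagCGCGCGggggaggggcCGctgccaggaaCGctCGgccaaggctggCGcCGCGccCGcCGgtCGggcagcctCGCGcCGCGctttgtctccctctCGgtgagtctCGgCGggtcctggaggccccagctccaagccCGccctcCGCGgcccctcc
Nr4a1: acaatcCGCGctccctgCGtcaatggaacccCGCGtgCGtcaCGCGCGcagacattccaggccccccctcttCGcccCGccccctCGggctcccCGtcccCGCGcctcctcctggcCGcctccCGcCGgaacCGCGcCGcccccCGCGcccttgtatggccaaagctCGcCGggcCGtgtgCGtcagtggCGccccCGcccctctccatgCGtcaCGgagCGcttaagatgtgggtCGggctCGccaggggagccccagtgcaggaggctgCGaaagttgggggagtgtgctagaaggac
Ptgs2: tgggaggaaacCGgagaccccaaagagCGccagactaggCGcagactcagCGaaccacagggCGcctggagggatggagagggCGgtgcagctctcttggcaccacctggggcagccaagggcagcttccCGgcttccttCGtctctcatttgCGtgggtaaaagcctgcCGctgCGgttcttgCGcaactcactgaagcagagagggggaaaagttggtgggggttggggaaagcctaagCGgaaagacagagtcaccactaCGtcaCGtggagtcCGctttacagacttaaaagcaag
Il12b: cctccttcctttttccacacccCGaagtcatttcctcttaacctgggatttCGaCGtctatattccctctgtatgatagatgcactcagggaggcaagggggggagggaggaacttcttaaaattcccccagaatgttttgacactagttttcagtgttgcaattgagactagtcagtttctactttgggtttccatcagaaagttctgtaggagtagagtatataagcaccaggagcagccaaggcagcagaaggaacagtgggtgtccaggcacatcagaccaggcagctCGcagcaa
Cish: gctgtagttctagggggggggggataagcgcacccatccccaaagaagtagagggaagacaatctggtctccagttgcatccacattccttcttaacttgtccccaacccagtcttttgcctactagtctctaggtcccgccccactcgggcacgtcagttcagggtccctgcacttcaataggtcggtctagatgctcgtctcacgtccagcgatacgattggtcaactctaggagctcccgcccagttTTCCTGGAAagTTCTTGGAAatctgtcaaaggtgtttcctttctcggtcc
The Nr4a1 window held 35 CG dinucleotides, the Socs3 window 31, the Socs1 window 18, the Ptgs2 window 16, the Cish window 11 and the Il12b window 4. The STAT word, which reads the same on both strands, occurred 2 times in the Cish window and 1 time in the Socs3 window, and it was not found in the other 4.

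The 8 stimulated libraries differed from the 2 M0 libraries in more than stimulation. Per the file headers, they held 14.2 to 20.9 megatags, against 14.5 megatags in KO M0 and 12.6 megatags in WT M0, and their estimated fragment length was 178 to 190 bp, against 372 bp in KO M0 and 352 bp in WT M0. The tag threshold for a region, per kb and 10 megatags, was 12.9 to 14.8 in stimulated libraries, against 14.5 in KO M0 and 15.9 in WT M0. Regions held 41.3% to 61.3% of tags in stimulated libraries, against 64.1% in KO M0 and 62.6% in WT M0, and they spanned 179 to 250.1 Mb of autosomes in stimulated libraries, against 176 Mb in KO M0 and 156 Mb in WT M0. The M0 tag totals thus lay near or below the low end of the stimulated range, and the M0 thresholds near or above its high end, while the M0 share of tags in regions lay above its range and the M0 length under regions below it. Stimulation and fragment length cannot be told apart, because no M0 library had short fragments. On chromosome X, outside the rule, the WT replicate 1 libraries of M1 and M2 stood apart: of 581 bins called in both M0 libraries, 29 were in no other stimulated library, and 3 were in no stimulated library once these 2 were included. Without these 2 libraries, an alternative chosen after seeing the data, the rule gave 2777 autosomal bins.

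The M0-only bins were the small end of a gradient. Of the bins called in both M0 libraries, 89232 (64.4%) were called in all 8 stimulated libraries, and the number declined step by step to 3757 in 2 stimulated libraries, 2969 in 1 and the 2656 in none. Most of the bins that missed the rule by 1 library were held by the KO M2 libraries. KO M2 replicates 1 and 2 accounted for 867 and 1414 of the 2969, together 76.8%, against 12 and 213 in WT M2, 70 and 208 in KO M1 and 104 and 81 in WT M1. Bins called in both M0 libraries and in both libraries of 1 stimulated group, and nowhere else, numbered 1824 for KO M2, 4 for WT M2, 33 for KO M1 and 9 for WT M1. Without both KO M2 libraries, an alternative chosen after seeing the data, the rule would have given 6761 bins, and without KO M2 replicate 2 it gave 4070.

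**Figure D1:**
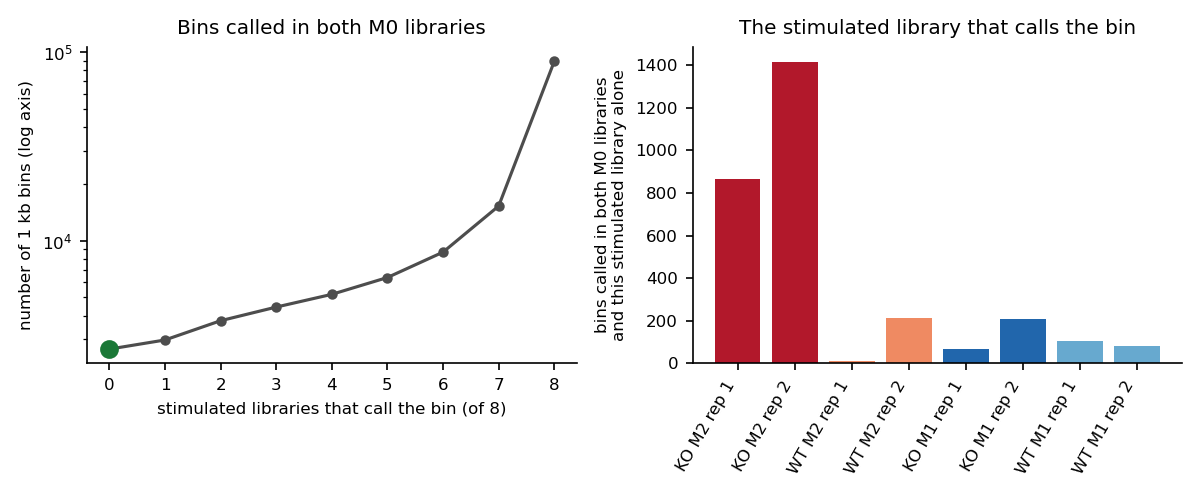
Left, the number of 1 kb bins called in both M0 libraries (log axis) by how many of the 8 stimulated libraries also called them; the large point is the 2656 M0-only bins. Right, the 2969 bins called in exactly 1 stimulated library, by library; KO M2 replicates 1 and 2 hold 867 and 1414 of them.

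The thresholds of the rule cut through a continuous range of cover. Inside the rule, the lower of the 2 M0 covers had a median of 813.5 bp, 811 bins (30.5%) were covered over their full length in both M0 libraries, and 494 lay within 100 bp of the 500 bp threshold. The highest stimulated cover was 0 bp in 1660 bins (62.5%), and it was within 100 bp of the threshold in 319. Just outside, 475 bins missed because their lower M0 cover lay within 100 bp under the threshold, and 356 missed because their single stimulated library lay within 100 bp above it. About 6 in 10 of the M0-only bins therefore had no base under any stimulated region, and the rest had an edge of one.

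Among the stimulated libraries, the length of M0-only bins still under regions was highest in KO M2. In bulk chromatin, fewer cells with the mark and less of the mark per cell cannot be told apart. Regions covered 4.36% and 5.84% of the M0-only length in KO M2, 0.249% and 2.19% in WT M2, 1.01% and 1.99% in KO M1, and 1.16% and 1.06% in WT M1, with 86.4% in KO M0 and 84.7% in WT M0. Both KO M2 values lay above those of the other 6 stimulated libraries. The mean was 3.16% ± 2.45 over the M2 libraries and 1.31% ± 0.461 over the M1 libraries (SD, n = 4 each), and it was 3.3% ± 2.20 over the KO and 1.17% ± 0.794 over the WT stimulated libraries (SD, n = 4 each). The rule itself held this cover under 500 bp of each bin in every stimulated library, and the bins it left out for a single library were mostly those of KO M2, so these values are a description and no test is read from them. The share of all tags that lay in regions was also highest in KO M2, at 61.0% and 61.3%, against 41.3% and 56.5% in WT M2, 45.4% and 48.5% in KO M1, and 48.3% and 45.0% in WT M1. WT M2 replicate 1 had the lowest share of tags in regions and, at 179 Mb, the least autosomal length under regions of the stimulated libraries, the others spanning 213 to 250.1 Mb. The part of either in the cover of M0-only bins was not tested.

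Stimulated regions were often close by. The share of M0-only bins with a region within 5 kb was 70.8% and 70.3% in KO M2, 34.8% and 62.5% in WT M2, 47.8% and 57.5% in KO M1, and 51.1% and 51.8% in WT M1. The median distance to the nearest region was 1.60 and 1.46 kb in KO M2, 9.09 and 2.81 kb in WT M2, 5.43 and 3.55 kb in KO M1, and 4.83 and 4.70 kb in WT M1. KO M2 libraries thus had regions nearest to these bins, and WT M2 replicate 1 had them farthest away. Neither contrast passed its test. The M2 share was 59.6% ± 17.0 and the M1 share 52.1% ± 4.02 (SD, n = 4 each, two-sided exact permutation p = 0.457, Benjamini-Hochberg adjusted over the 4 tests computed, 0.457). The KO share was 61.6% ± 11.1 and the WT share 50.0% ± 11.5 (SD, n = 4 each, exact permutation p within state = 0.167, adjusted 0.305). The smallest p that this design allows is 0.0286 for state and 0.0556 for genotype, so the genotype test could not pass 0.05. Without WT M2 replicate 1, M2 minus M1 was 15.8 points with an exact p of 0.0286, unadjusted, and KO minus WT was 4.56 points with an exact p of 0.222. KO minus WT was 21.9 points in M2 and 1.2 points in M1, and the difference between these effects had an exact permutation p of 0.222. All these p-values come from bins chosen on the same region calls. Bins called in a stimulated library, which would count as near it, were left out by the rule. Those left out for a single library were mostly bins of KO M2. Bins with less than 500 bp under a region still counted as near it. The p-values therefore decide neither contrast, and the shares are a description.

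**Figure D2:**
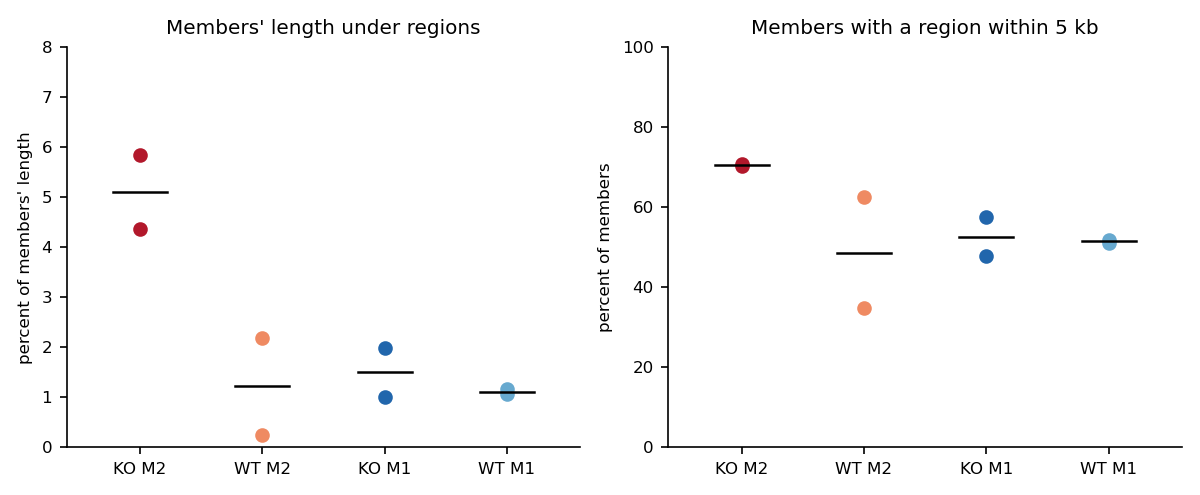
Percent of the M0-only length under the regions of each stimulated library (left) and percent of M0-only bins with a region of that library within 5 kb (right). Points are libraries and bars are means of 2; the KO M2 libraries lie above the other groups, and the WT M2 libraries lie far apart.

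M0-only bins were short and scattered. They formed 2226 runs of adjacent bins, of which 1895 (85.1%) were a single bin, 260 were 2 bins and 71 were 3 or more, and the longest run was 7 bins. Single bins made up 71.3% of M0-only bins, against 30.3% of the 15348 bins called in all 8 stimulated and no M0 library and 5.63% of bins called in all 10 libraries. Counting regions of any stimulated library, 1102 M0-only bins (41.5%) had one within 5 kb on both sides, 1157 (43.6%) on 1 side and 397 (14.9%) on neither side, and 147 (5.53%) had none within 20 kb. The bins were spread over all 19 autosomes, at between 1.33% of both-M0 bins on chromosome 6 and 3.0% on chromosome 10.

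The M0 regions that held these bins differed little in tag density from other M0 regions, and were narrower in WT M0 but not in KO M0. In KO M0, 2143 regions (5.88%) held an M0-only bin, with a median width of 1.82 kb and 17.9 tags per kb per 10 megatags, against 1.80 kb and 18.5 in regions without one. In WT M0, 2151 regions (6.68%) held one, with a median width of 1.53 kb and 18.6 tags per kb, against 1.82 kb and 19.4 in regions without one. Regions of up to 2 kb held 43.8% of M0-only bins in KO M0 and 49.6% in WT M0, while regions of 20 kb or more held 10.3% in KO M0 and 8.13% in WT M0. A region end lay inside 54.2% of the bins in KO M0 and 60.8% in WT M0.

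Most M0-only bins lay in gene bodies, and a small share held a gene start. Protein-coding genes held 60.2% of them, against 33.8% of bins called in all 8 stimulated and no M0 library and 50.2% of bins called in all 10 libraries. Of the M0-only bins on chromosomes with annotated starts, 171 of 2587 (6.61%) held the start of a protein-coding gene, against 0.328% of bins called in all 8 stimulated and no M0 library, 3.82% of bins called in all 10 and 3.45% of all bins called in both M0 libraries. Within a wider distance the sets were closer: 19.8% of M0-only bins lay within 5 kb of a start, against 12% of stimulated-only bins, 22.7% of bins called in all 10 libraries and 19.6% of both-M0 bins. The median distance to a start was 23.3 kb, against 31.1 kb, 21.3 kb and 23.8 kb in the same sets. More than 5 kb from any protein-coding gene lay 31.0% of M0-only bins, against 52.9%, 34.0% and 34.9% in these sets. Counted by gene, 176 of 16457 genes had a start in an M0-only bin (1.07%), which is 4.19% of the 4201 genes whose start lay in a bin of both M0 libraries. A gene with several starts was counted by any of them. Values given below at a start use a start in an M0-only bin where the gene had one, so that start was chosen by the rule. A stimulated region lay within 1 kb on both sides of 4.68% of these 171 bins, against 13.5% of the 2416 M0-only bins without a start. It lay on neither side of 42.7% of bins with a start, against 34.6% of those without. The length still covered was nevertheless larger in M0-only bins with a start in each of the 8 stimulated libraries, for example 4.91% and 10.5% in KO M2, against 4.37% and 5.57% of the length of those without. Starts of lncRNA genes lay in M0-only bins in 53 of 9291 genes (0.570%), and 1 of 919 miRNA hairpins, Mir7067, touched one.

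The starts in M0-only bins were rich in CG. Their 193 windows had a median GC content of 63.3% and a median of 22 CG dinucleotides in 300 bases, against 46.7% and 2 in the 49 windows of bins called in all 8 stimulated and no M0 library, 61.7% and 17 in bins called in all 10 libraries, and 57.0% and 14 in all 20085 windows. The ratio of observed to expected CG was at least 0.6 in 63.2% of them, against 0% of the stimulated-only windows, 52.5% of the windows of all 10 libraries and 48.9% of all windows. In the 5051 windows of bins called in both M0 libraries, the medians were 60.7% GC and 15 CG dinucleotides, and 48.5% reached that ratio. M0-only starts and stimulated-only starts were thus far apart in base content, and the fragment lengths of the libraries, given above, divide the same way; the part of fragment length in this was not tested. The STAT word TTCNNNGAA was in 8 of the 193 windows (4.15%), against 7.78% of all windows, and the TATA word TATAAA on the strand of the gene was in 4.66%, against 8.29%. The genes with the STAT word were Cish, Socs3, Maff, H2bc1, Prodh, Tgm1 and Urah, of which those in no list were named after their values were seen.

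**Figure D3:**
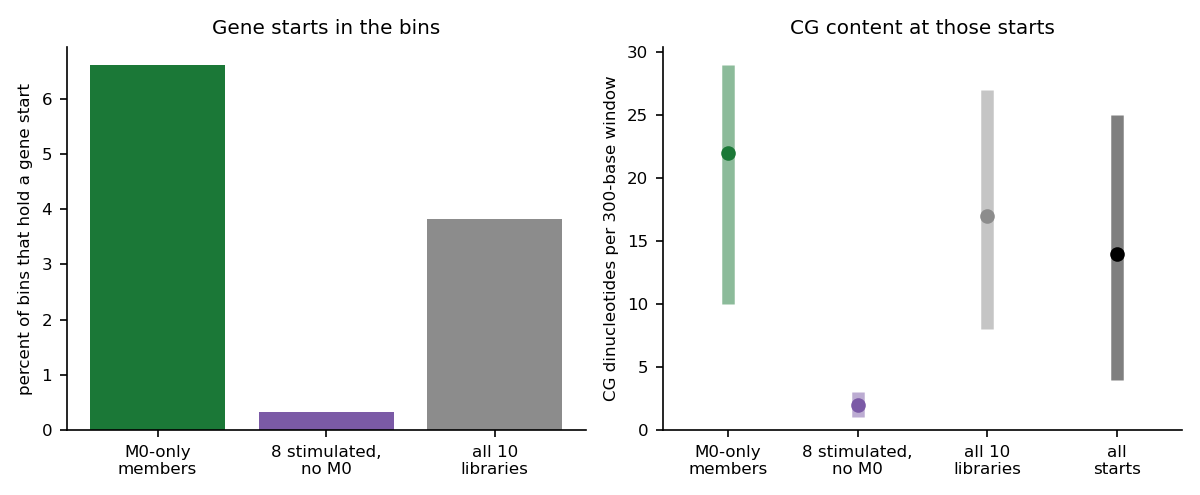
Left, percent of bins that hold the start of a protein-coding gene, for M0-only bins (6.61%), bins called in all 8 stimulated and no M0 library (0.328%) and bins called in all 10 libraries (3.82%). Right, CG dinucleotides in the 300-base start windows of the same bins and of all genes; points are medians and bars span the quartiles.

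Socs1, whose protein inhibits JAK kinases downstream of IFNg and IL-4, held the longest run, 7 bins at chr16:10781001-10788000. The run lay inside regions of 130 kb in KO M0 and 127 kb in WT M0, with 54.0 tags per kb in KO M0 and 54.6 in WT M0, above the upper quartiles of regions with M0-only bins, 21.7 in KO M0 and 22.6 in WT M0, and the protamine-cluster genes Tnp2, Prm3 and Prm2 lay within 5 kb of it. The run was covered over 6.04% and 4.69% in KO M2, 0% and 4.96% in WT M2, 0% and 3.0% in KO M1, 0% in both WT M1 libraries, and 100% in both M0 libraries. Stimulated regions stayed on both sides and left a gap over the gene: the nearest edge was 2.12 to 3.15 kb from the start at chr16:10785536 in all 8 libraries, and no base of the bin that held the start was covered in any of them. In the 5 kb centred on the Socs1 start, stimulated cover was 0 to 7.64%.

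Socs3, which encodes an inhibitor of cytokine receptors of the gp130 family and is induced by LPS, had regions near its start in M2 but not M1 libraries. In the 5 kb centred on its start, cover was 43.0% and 45.5% in KO M2, 38% and 47.2% in WT M2, 0% in all 4 M1 libraries and 100% in both M0 libraries. The nearest region was 0.224 to 0.60 kb from the start in the M2 libraries and 14.2 to 31.2 kb away in the M1 libraries. Its 3 M0-only bins ran from the start upstream, and M2 regions lay beyond them and again downstream of the start. This is a description of 1 gene, with no test. How many other starts in M0-only bins divided M2 from M1 in this way was not counted.

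Cish, a STAT target that encodes another SOCS-family inhibitor, was a case at the edge of the rule. Covered length of its start bin was 124 and 411 bp in KO M2, 0 and 150 bp in WT M2, 0 bp in all 4 M1 libraries, 523 bp in KO M0 and 549 bp in WT M0. In KO M2 replicate 2 a region reached the start itself. Over the 5 kb window, cover of the Cish start was 45.6% and 51.4% in KO M2, 28.7% and 46.3% in WT M2, 37.3% and 5.5% in KO M1, 20.0% in both WT M1 libraries, 53.6% in KO M0 and 54.1% in WT M0. The KO M2 libraries and WT M2 replicate 2 lay within 10 points of the M0 values, and KO M1 replicate 2 lay farthest below them. Of the other SOCS genes, looked at after these values were seen, Socs2, Socs4, Socs5, Socs6 and Socs7 had no M0-only bin within 5 kb.

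**Figure D4:**
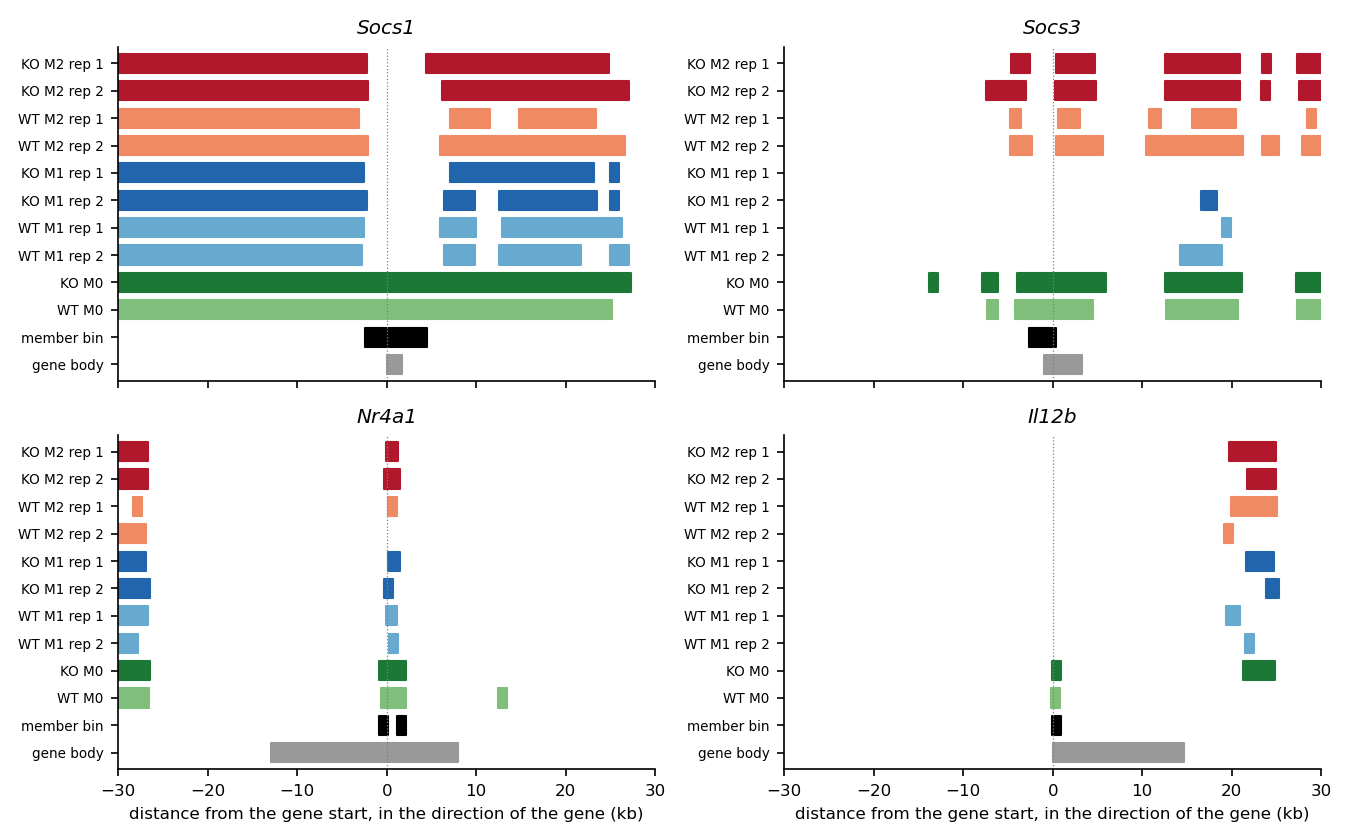
Merged H3K27me3 regions of each library around 4 gene starts, by distance from the start in the direction of the gene (kb), with M0-only bins in black and the gene body in grey. At Socs1 stimulated regions stop on both sides of the start, at Socs3 M2 libraries keep regions that M1 libraries lack, at Nr4a1 short stimulated regions remain in 7 of 8 libraries, and at Il12b only M0 libraries have a region at the start.

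At Il12b and Ptgs2, of the LPS and interferon list, the M0 regions were small. Il12b was shown, like Ptgs2, Maff, Pdgfa, Cmklr1 and Kcnk2, because it is a list gene with its start in an M0-only bin, a choice made after its values were seen. Its start bin was covered over 0 bp in every stimulated library, whose nearest region was 19.1 to 23.8 kb away, against 974 bp in KO M0 and 853 bp in WT M0 under regions of 1.00 kb. Ptgs2 also had a short M0 region, of 1.52 kb in KO M0 and 1.00 kb in WT M0. Cover of its start bin was 0 and 352 bp in KO M2, 0 bp in the other 6 stimulated libraries, 741 bp in KO M0 and 527 bp in WT M0, so that in KO M2 replicate 2 a region lay over the start. A region of 1.00 kb is the width of the window that the authors' caller used, so both genes rested on little more than single windows.

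Immediate early genes are those that signals switch on within minutes. The list of immediate early and feedback regulators had 4 starts in M0-only bins of 38 genes with an annotated start (10.5%), against 1.07% of all genes. Of these 38, 12 had a start in a bin called in both M0 libraries. Over all genes, 4.19% of those with such a start had one in an M0-only bin. Dusp2, a phosphatase of MAP kinases, lay in regions of 14.0 kb in KO M0 and 12.3 kb in WT M0. In the 5 kb around its start, cover was 16.2% and 31.4% in KO M2, 0% and 29.0% in WT M2, 0% and 2.02% in KO M1, 0% in both WT M1 libraries, 78.1% in KO M0 and 72.2% in WT M0. Maff, a small Maf transcription factor, was covered over 0% in 7 stimulated libraries and 25.3% in KO M1 replicate 2, against 77.3% in KO M0 and 37.0% in WT M0. Regions thus remained in the Dusp2 window in 4 of 8 stimulated libraries and in the Maff window in 1. Nr4a1 differed: short regions remained within 0.264 kb of its start in 7 stimulated libraries, and 26.9 kb away in WT M2 replicate 2, against M0 regions of 2.97 kb in KO M0 and 2.73 kb in WT M0 over the start. Csrnp1, a nuclear protein induced by AXIN1 in human cells, had its nearest stimulated region 1.06 to 8.39 kb from the start.

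Stimulated regions ended close to the starts of 2 growth factor genes. Vegfa, which encodes the main angiogenic growth factor, lay in regions of 75.9 kb in KO M0 and 71.9 kb in WT M0. Its 5 kb window was covered over 43.3% and 35.7% in KO M2, 35% and 39.8% in WT M2, 36.2% and 56.8% in KO M1, 44.7% and 37.4% in WT M1, 100% in KO M0 and 91.2% in WT M0. All 8 stimulated libraries ended a region 0.314 to 0.747 kb from the Vegfa start. Pdgfa, which encodes a chain of platelet-derived growth factor, had 38.8% to 69.0% of its window covered in stimulated libraries and 100% in both M0 libraries. Cd82, which encodes a tetraspanin of the cell surface, had stimulated regions ending 0.079 to 0.341 kb from its start. At these 3 genes each stimulated library had a region within 1 kb of the start. Cmklr1, which encodes the receptor of the chemoattractant chemerin, had a window cover of 0% and 47.7% in KO M2, 0% and 38.1% in WT M2, 0% in all 4 M1 libraries, 92.9% in KO M0 and 61.8% in WT M0. Kcnk2, which encodes a potassium channel, had 31.5% of its window covered in both KO M2 libraries, 26.4% and 25.1% in WT M2, 0% in both KO M1 libraries, 35.4% and 20.0% in WT M1, 34.2% in KO M0 and 35.5% in WT M0. The 2 KO M1 libraries thus had no region in the Kcnk2 window, and WT M1 replicate 1 lay between the 2 M0 values.

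At some other starts with several M0-only bins nearby, no stimulated region reached the 5 kb window. Phldb3, Pygm, which encodes muscle glycogen phosphorylase, Ripor3 and Nyap1 had 0% of it covered in all 8 stimulated libraries. The Ripor3 start used lay inside the gene body, which was covered over 57.0% to 75.3% in these libraries. In the M0 libraries, Phldb3 had 63.7% in KO M0 and 63.0% in WT M0, and Pygm had 68.0% in KO M0 and 71.4% in WT M0. Ripor3 had 65.5% in KO M0 and 69.0% in WT M0, and Nyap1 had 36.6% in KO M0 and 31.2% in WT M0. Chst3, which encodes a chondroitin sulfotransferase, had 27.1% and 20.0% in KO M2, 0% in the other 6 stimulated libraries, 48.1% in KO M0 and 62.0% in WT M0. Calhm2, which encodes a calcium homeostasis modulator channel, had 42.3% and 45.1% in KO M2, 0% and 45.0% in WT M2, 20.0% and 0% in KO M1 and 0% in both WT M1 libraries. The Calhm2 window was covered over 57.0% in KO M0 and 60.6% in WT M0. Its start bin lay at the edge of the rule, with 614 bp covered in KO M0, 584 bp in WT M0 and 486 bp in WT M2 replicate 2. Of the rest of this group, Hpn encodes the serine protease hepsin. The Hpn window was covered over 0% and 20.0% in KO M2 and 0% in the other 6 stimulated libraries. The B3gnt3 window was covered over 32.2% and 0.76% in KO M2 and 0% in the other 6. The B3gnt3 body, however, was covered over 26.8% to 37.4% in all 8 stimulated libraries.

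Among the 17 gene lists, those for macrophage stimuli held many M0-only bins. Of all 20665 autosomal protein-coding genes, 1507 had an M0-only bin in the body or within 5 kb (7.29%). In the list of IL-4 response genes 12 of 39 had one (30.8%), in the lipid and sterol list 9 of 40 (22.5%) and in the LPS and interferon list 9 of 42 (21.4%). Median gene bodies in these lists were 12.3, 27 and 9.34 kb, against 17.5 kb over all genes, so that only the lipid list had longer genes than the background. Counting only genes near a bin called in both M0 libraries, the shares were 48.0% of 25, 42.9% of 21 and 47.4% of 19, against 17.2% of 8747 genes. The share was also high in the list of macrophage identity genes, at 50.0%, but only 8 of those genes were near such a bin. The lists and the counts are descriptions made with earlier results of these data known.

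**Figure D5:**
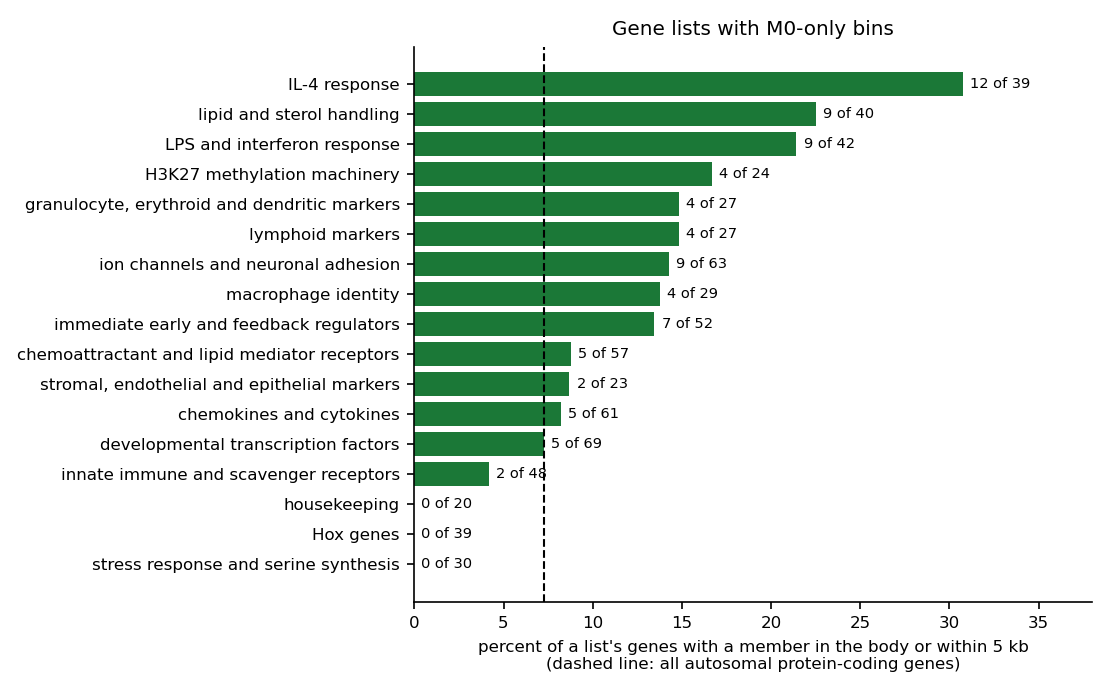
Percent of the measured genes of each list that had an M0-only bin in the body or within 5 kb, with the counts beside the bars; the dashed line is the 7.29% of all autosomal protein-coding genes. The IL-4, lipid and LPS lists lie at 21.4% to 30.8%, and the Hox, housekeeping and stress lists at 0.

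Of the IL-4 genes, Tgm2, which encodes a transglutaminase used as a marker of M2 macrophages, had 7 M0-only bins in its body. Cover of the Tgm2 body was 13.5% and 25.2% in KO M2, 0% and 20.6% in WT M2, 0% and 14.2% in KO M1, 0% and 4.8% in WT M1, 70.4% in KO M0 and 47.9% in WT M0. Stimulated and M0 values did not overlap, but the 7 bins are part of this body and were selected for such a difference. The gap is therefore a description and carries no test. The other 9 IL-4 genes beside Socs1, Cish and Tgm2 had 1 or 2 M0-only bins and no start in one; they include Mgl2, Alox15, Egr2, Pdcd1lg2 and Kdm6b and are named as members of the list. In the LPS and interferon list, Cd40, a costimulatory receptor, had 2 bins in its body, and body cover was 14.3% and 7.81% in KO M2, 0% and 8.37% in WT M2, 0% in all 4 M1 libraries, 43.1% in KO M0 and 25.7% in WT M0. Cd80, Ciita, Gbp5, Lcn2 and Tnf had 1 bin each.

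The H3K27 methylation list had 4 of 24 genes with an M0-only bin (16.7%), against 7.29% of all genes. Of its 13 genes near a bin called in both M0 libraries, 30.8% had one, against 17.2% of all such genes. Cbx2, a Polycomb CBX subunit, had 3 bins, and its body cover was 42.1% and 25% in KO M2, 8.16% and 32.2% in WT M2, 25.7% and 30.9% in KO M1, 20.3% and 17.9% in WT M1, 81.5% in KO M0 and 81.4% in WT M0. Kdm6b, the H3K27 demethylase that macrophages induce on activation, had 2 bins in its body, which was covered over 1.31% to 19.4% in stimulated libraries, 35.1% in KO M0 and 23.9% in WT M0. Bmi1 had 1 bin.

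In lipid metabolism, Acacb, an acetyl-CoA carboxylase that limits fatty acid oxidation, had 8 M0-only bins over its 104 kb. Cover of the Acacb body was 48.3% and 41.7% in KO M2, 10.1% and 31.2% in WT M2, 19.3% and 23.3% in KO M1, 23.5% and 18.1% in WT M1, 50.6% in KO M0 and 49.9% in WT M0. In body cover the KO M2 libraries were the nearest to the M0 values. The 5 kb around the Acacb start went another way, with 81.4% and 81.7% in KO M2, 50.3% and 79.6% in WT M2, 29.5% and 75.4% in KO M1, 81.4% and 61.7% in WT M1, 50.1% in KO M0 and 36.5% in WT M0. There 7 of the 8 stimulated libraries lay above both M0 libraries. Rxra, a nuclear receptor partner of PPARs and LXRs, had 3 bins and Lrp1, a lipoprotein receptor, had 2, with no Lrp1 cover in any stimulated library and 1.83% in KO M0 and 1.92% in WT M0.

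Of the genes of macrophage identity, 4 of 29 had an M0-only bin (13.8%), against 7.29% of all genes. C1qa, a complement C1q chain, C1qc and Mertk, an efferocytosis receptor, had 1 bin each. Spi1, Csf1r, Cebpa, Adgre1, Cd68, Itgam, Mpeg1, Lyz2, Fcgr1 and Tyrobp, which are defining macrophage genes, had none. Markers of other cells had an M0-only bin in 4 of 27 lymphoid genes (14.8%) and 4 of 27 granulocyte, erythroid and dendritic genes (14.8%). Stromal, endothelial and epithelial markers had one in 2 of 23 (8.70%). Of the genes near a bin called in both M0 libraries, these lists had one in 20.0%, 26.7% and 11.8%, against 17.2% of all such genes. Which cells carried the mark there was not tested.

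Several lists had no M0-only bin or a share near the background, and others in this paragraph lay above it. None of 39 Hox genes, 20 housekeeping genes or 30 genes of the stress response and serine synthesis had an M0-only bin, although all 39 Hox genes were near a bin called in both M0 libraries. Only 2 of the housekeeping genes and 7 of the stress genes were near such a bin, so few genes of these 2 lists could have had an M0-only bin. Developmental transcription factors had 5 of 69 (7.25%), about the share of all genes. All 69 were near a bin called in both M0 libraries, and their share was below the 17.2% of all genes near such a bin. Ion channel and neuronal adhesion genes had 9 of 63 (14.3%), above the background of 7.29%, with a median body of 326 kb; of the 53 near a bin called in both M0 libraries, 17.0% had one. Chemokines and cytokines had 5 of 61 (8.20%), chemoattractant and lipid mediator receptors 5 of 57 (8.77%) and innate immune and scavenger receptors 2 of 48 (4.17%). Immediate early and feedback regulators had 7 of 52 (13.5%), above the background. Of their 29 genes near a bin called in both M0 libraries, 24.1% had one.

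The other long runs were mostly inside gene bodies. Runs of 6 bins lay in Kif26a, a kinesin family gene (chr12:112173001-112179000), at Pbxip1, beside Pmvk, the phosphomevalonate kinase of sterol synthesis (chr3:89445001-89451000), and in Rab36, a small GTPase gene (chr10:75046001-75052000). Stimulated cover of these 3 runs was 0% to 6.98%, and M0 cover was 97.5% to 100%. A run of 5 bins lay in Chst1, and runs of 4 lay in Ralgds, an exchange factor of Ral GTPases, in Dab2ip, a Ras GTPase-activating protein gene, in Amz1, across the start of Hpn, and at chr12:105906001-105910000 with no protein-coding gene within 5 kb. Over the 10 runs the highest stimulated cover was 8.10%, at Amz1 in WT M1 replicate 2, and M0 cover was at least 87.7%.

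Short genes with a large share of the body in M0-only bins included Tha1, which encodes threonine aldolase (53.8%), Castor1, the arginine sensor of mTORC1 (47.1%), and Hspa1b, an inducible heat shock protein 70 gene (44.1%). The Hspa1b start had stimulated regions 0.922 to 8.71 kb away, and its 5 kb window was covered over 29.7% and 31.6% in KO M2, 0% and 20.0% in WT M2, 18.9% and 17.7% in KO M1, 20.0% and 17.9% in WT M1, 56.0% in KO M0 and 56.1% in WT M0. Others of this group were 1700024J04Rik, Prr29, Gm17455, Dtx3 and Zmynd15, at 44.3% to 54.2% of the body.

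The authors' deposited tables of regions that differed between KO and WT seldom met the M0-only bins. In M2, 1 of 1049 regions that the authors' deposited table lists as higher in KO touched an M0-only bin, although 760 (72.4%) touched a bin called in both M0 libraries, and 108 M0-only bins (4.07%) lay within 5 kb of one. Of the 185 regions listed as higher in WT M2 in the authors' deposited table, none touched an M0-only bin and 4 touched a bin of both M0 libraries. In M1, the authors' deposited tables list 93 regions higher in KO, of which 1 touched an M0-only bin, and 49 higher in WT, of which none did. The rule removes every bin that a KO M2 library calls, so a low count of M0-only bins in these tables follows from the selection.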

How the data were processed

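H3K27me3 ChIP-seq was measured in 10 libraries. Per the submitters' processing notes, reads were handled with Bowtie2 2.4.2, SAMtools 1.10, HOMER 4.8, deepTools 3.5.1 and DiffBind 2.0.2 on mm10. Per the file headers, HOMER findPeaks called regions in each library with 1000 bp windows, a minimum distance of 2500 bp between regions and a threshold of 0.001 on the false discovery rate. The deposited signal per region is a tag count normalised by the authors to 10 megatags. The authors' score (a findPeaks score) only ranked regions, the authors' ratio (clonal fold change) was not tested, and the deposited KO against WT tables give a log2 fold and a p-value per region, of which positions alone were used. Gene bodies, starts and sequences came from RefSeq GRCm38.p6, and no starts were used on chromosome 18. For a gene with several starts, values at the start use the lowest-positioned start in an M0-only bin. Where none lay in such a bin, the lowest-positioned start was used. The starts used for Nr4a1, Cmklr1, Kcnk2, Pdgfa, Ripor3 and Acacb lay inside the annotated gene body. The files give regions, not counts, so no interval is given.

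Cover, runs, distances and exact permutation tests over libraries were computed in Python 3.11.15 with numpy 2.4.6 and pandas 2.3.3, and the 4 p-values were adjusted together by Benjamini-Hochberg. The code was tested on simulated data. The members and lists were chosen with earlier results of these data known. Genes were named by rule: those within 5 kb of the 10 longest runs, the 10 with the highest share of a body of at least 2 kb, up to 12 by M0-only bins near a start inside one, and up to 3 per list. Replicate numbers did not pair libraries. Alternatives changed the bin size and offset, the 500 bp threshold, the region score, the distance, and the libraries used. Some genes that this rule names are not reported here.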

Additional observations from a re-analysis of the deposited data

Results flagged for a closer look

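In KO M1 replicate 2, 1.99% of the M0-only length lay under regions, against 1.01% in KO M1 replicate 1 and 1.16% and 1.06% in the WT M1 libraries; its gap to the nearest of them was large for a group of 4. Chance flags about 1 group in 20 of unselected values, and 4 sets of 4 values were examined. Cover is capped by the rule, so this flag is a description and no test is read from it. Also in KO M1 replicate 2, 57.5% of M0-only bins had a region within 5 kb, against 47.8% in KO M1 replicate 1 and 51.1% and 51.8% in the WT M1 libraries.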

How the results depend on the processing

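The count of M0-only bins was 1367 with 2 kb bins, 1683 with the upper 50% of regions by score, 1660 with no base allowed under a stimulated region, 5762 with WT M0 as the only M0 library and 8597 with KO M0 as the only one. Leaving out each stimulated library in turn gave 2668 to 4070 bins, the highest without KO M2 replicate 2, and leaving out both KO M2 libraries gave 6761. Genes with at least 3 M0-only bins numbered 158, against 1507 with at least 1. With the upper 50% of regions, M2 minus M1 in the share of bins near a region turned to -0.40 points (exact p = 0.914). Leaving out 1 library in turn gave 1.42 to 2.82 points for M2 minus M1 in cover and 3.67 to 15.8 points for M2 minus M1 in bins near a region; the difference in bins near a region passed 0.05 only without WT M2 replicate 1. Cover is capped by the rule in each stimulated library, so no test is read from it. The bins counted as near a region were chosen on the same region calls, so their p-values decide neither contrast. No alternative moved KO minus WT in bins near a region past 0.05; its exact p-values lay between 0.0556 and 0.833, and the full design allows none under 0.0556. Without both WT replicate 1 libraries, M2 minus M1 was 2.84 points in cover and 15.5 points in bins near a region (exact p = 0.1), and KO minus WT was 1.68 points in cover and 4.26 points in bins near a region (exact p = 0.444). Over all alternatives the share of M0-only bins in genes lay between 57.2% and 62.7%, in runs of 3 or more between 1.32% and 24.5%, and with no stimulated region within 5 kb between 8.58% and 23.9%.

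With the replicate number as a block, cover differed by 1.85 points between M2 and M1 and by 2.14 points between KO and WT, and bins near a region by 7.56 points (exact p = 0.5) and 11.6 points (exact p = 0.25), and the call for bins near a region did not change. Deviations of same-numbered libraries correlated at -0.07 to 0.12 between groups, so the numbers give no pairing. Deposited regions without counts limit these results: a bin is called or not, and 1 M0 library per genotype leaves the M0 calls without a replicate within genotype.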
